A study of Mus musculus with 6 samples.

Results

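Transcripts of 10 germ line genes that are normally kept silent in somatic cells by promoter DNA methylation were examined in RNA-seq libraries of mouse tailbud. They were Tex19.1, Ddx4, Mael, Asz1, Sycp3, Hormad1, Dazl, Stk31, Slc25a31 and Tex101, picked by name, and they make up 10 of the 35506 genes kept from the deposited table. DNA methylation was not among the measurements used here, so "methylation-silenced" describes the class of gene and not a state measured in these embryos. The tissue was tailbud with presomitic mesoderm, taken from FVB/NJ embryos that had 8 somites. The WT group was 3 Smchd1+/+ embryos. The MommeD43 group was 3 embryos with both copies of Smchd1 carrying MommeD43, an allele with an amino acid change that came from ENU mutagenesis. The SMCHD1 protein binds chromatin and takes part in X inactivation and in silencing clustered and imprinted genes. Both groups had 1 male (replicate 1) and 2 females (replicates 2 and 3). By the embryo labels both males came from 1 mother, while the 4 females came from different mothers.

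The germ line starts in the early embryo, when a small group of cells at the posterior end is set aside as primordial germ cells and then migrates away through the hindgut. In the other cells of the embryo, a set of germ cell genes with CpG-rich promoters acquires DNA methylation around implantation, through DNMT3A and DNMT3B, and DNMT1 with UHRF1 then maintains it. Many of these promoters are also bound by a Polycomb complex that contains the DNA-binding proteins MGA, MAX and E2F6. MGA with MAX recognises the E-box CACGTG, and E2F6 recognises GCGGGA. When DNA methylation is lost, genes such as Dazl, Ddx4 and Mael are transcribed in the wrong cells, which is why this class is read as a sensitive sign of failed silencing. The comparison of MommeD43 with WT asks whether any of them was transcribed at another level when SMCHD1 is altered.

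The promoters of 4 of these genes carry both recognition sequences within the 250 bases before the start site, and they are shown here with Tex19.1, which had the most reads and lacks the E-box. Each line gives the 250 bases before the RefSeq start site (GRCm38.p6), 5′ to 3′ on the gene's strand, with every CACGTG and every GCGGGA in capitals, the latter printed as TCCCGC where it lies on the other strand. The windows are chr13:112652311-112652560 for Ddx4 (minus strand), chr1:166238745-166238994 for Mael (minus strand), chr10:88459337-88459586 for Sycp3 (plus strand), chr3:95559427-95559676 for Hormad1 (plus strand) and chr11:121145893-121146142 for Tex19.1 (plus strand).
Ddx4: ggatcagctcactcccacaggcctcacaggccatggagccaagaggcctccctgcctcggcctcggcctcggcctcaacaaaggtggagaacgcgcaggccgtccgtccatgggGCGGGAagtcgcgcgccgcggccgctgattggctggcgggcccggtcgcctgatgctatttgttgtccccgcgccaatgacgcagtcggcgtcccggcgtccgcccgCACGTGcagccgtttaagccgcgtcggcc
Mael: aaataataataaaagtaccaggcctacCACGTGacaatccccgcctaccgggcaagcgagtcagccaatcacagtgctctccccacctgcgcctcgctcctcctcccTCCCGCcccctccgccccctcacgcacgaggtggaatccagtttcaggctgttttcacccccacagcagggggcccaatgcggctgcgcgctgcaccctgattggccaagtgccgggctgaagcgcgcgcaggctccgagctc
Sycp3: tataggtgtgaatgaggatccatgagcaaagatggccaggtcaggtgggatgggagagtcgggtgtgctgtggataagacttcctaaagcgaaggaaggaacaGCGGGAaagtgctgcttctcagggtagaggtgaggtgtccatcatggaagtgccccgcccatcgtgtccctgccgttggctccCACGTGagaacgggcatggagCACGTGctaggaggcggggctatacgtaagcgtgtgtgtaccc
Hormad1: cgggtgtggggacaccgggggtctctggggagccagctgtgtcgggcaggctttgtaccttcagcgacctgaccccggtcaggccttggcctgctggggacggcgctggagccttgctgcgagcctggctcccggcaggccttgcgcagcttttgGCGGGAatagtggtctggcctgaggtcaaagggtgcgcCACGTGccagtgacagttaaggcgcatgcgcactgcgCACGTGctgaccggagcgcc
Tex19.1: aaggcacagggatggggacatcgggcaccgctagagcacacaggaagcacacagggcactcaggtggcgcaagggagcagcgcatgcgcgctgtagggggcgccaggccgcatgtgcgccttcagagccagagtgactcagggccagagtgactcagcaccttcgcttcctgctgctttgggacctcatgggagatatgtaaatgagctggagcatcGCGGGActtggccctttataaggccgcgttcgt

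Over the full RefSeq window, 300 bases that end 50 bases after the start, all 10 genes had an entry. CACGTG, which reads the same on both strands, occurred in 6 of 10 windows (Ddx4, Mael, Sycp3, Hormad1, Stk31 and Slc25a31), with 2 copies each in Sycp3 and Hormad1, and in 7.24% of the first-listed windows of 27025 genes. GCGGGA or TCCCGC also occurred in 6 of 10 (Ddx4, Mael, Sycp3, Hormad1, Tex19.1 and Slc25a31), against 20.02% of all windows. Both motifs, which share no base in these windows, were present together in 5 of 10, against 2.05% of all windows and 4.79% of the 9857 windows with a CpG observed to expected ratio of at least 0.6. That ratio, which compares the CpG count with the count that the C and G content would give, ran from 0.575 in Tex19.1 to 0.978 in Ddx4, with a median of 0.782. It was at least 0.6 in 9 of 10 windows, Tex19.1 being the exception, and in 36.5% of all windows. In the 9857 windows at or above 0.6, CACGTG occurred in 11.4% and GCGGGA or TCCCGC in 43.0%. In the windows of 51 other genes with germ cell roles, CACGTG occurred in 27.5%, GCGGGA or TCCCGC in 39.2% and both in 11.8%. Dazl, Asz1 and Tex101 held neither motif. A match shows only that the letters are present, and no binding was measured. The RefSeq start of Tex101 lay 4625 bases inside the gene as the deposited table places it, that of Ddx4 165 bases inside, and the others within 65 bases of the gene's start.

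**Figure D1:**
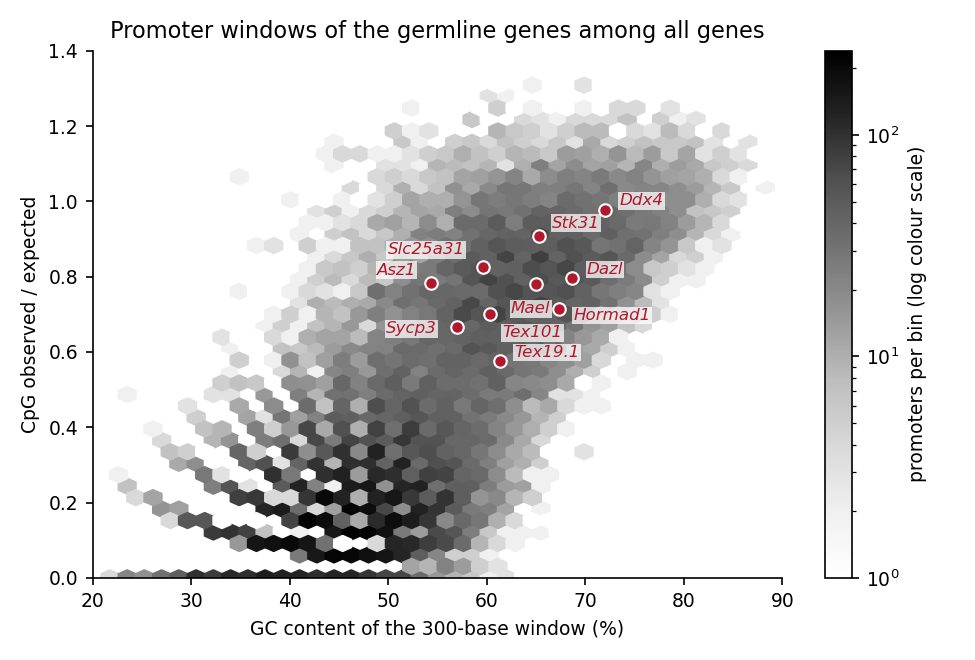
GC content (x, %) and CpG observed to expected ratio (y) of the 300-base promoter windows of all genes, as grey hexagons whose darkness gives the number of windows on a log scale, with the 10 germline genes as red points and the few windows beyond the axes not drawn. The germline genes lie between 54.3% and 72.0% GC and between 0.575 and 0.978, above the median ratio of all windows of 0.389.

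Expression is given as RPKM, the reads of a gene scaled to the length of its merged exons and to the size of the library, after whole reads were recovered from the deposited log2 RPKM. The libraries held 36617081, 23622033 and 16621319 reads in WT replicates 1 to 3 and 10957916, 47298348 and 13088211 reads in MommeD43 replicates 1 to 3, a 4.32-fold span. The 2 shallowest libraries were both MommeD43. The table gives a gene with no read the value of 0.9 read, so its deposited log2 RPKM is higher in a shallower library, and genes unread in every library differed by 0.36 (log2, MommeD43 minus WT) for that reason alone. Here such a gene is set at 0 RPKM, beside the RPKM that 3 reads would make in that library, which is the level a count of 0 allows. Intervals are exact (Clopper-Pearson) 95% intervals of the reads and cover counting error only, since reads without molecular identifiers are not independent molecules.

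Markers of the labelled tissue were present, and all 8 of the tailbud and presomitic mesoderm list (T, Tbx6, Msgn1 and others) were read in every library, with summed levels of 490 to 700 RPKM in WT and 505 to 606 RPKM in MommeD43. One label field names neural stem cells, but the neural stem cell list summed to 12.0 to 16.6 RPKM over all libraries. Other tissue differed widely between libraries. Blood markers summed to 5.47, 469 and 174 RPKM in WT and 13.4, 208 and 14.6 RPKM in MommeD43, and yolk sac markers to 104, 192 and 209 RPKM in WT and 341, 36.1 and 26.6 RPKM in MommeD43. Smchd1 itself had a mean of 8.07 ± 0.672 RPKM in the WT libraries against 7.58 ± 0.3997 RPKM in the mutants (SD, 3 libraries each). Its RNA level does not check the genotype, because the allele is a missense change.

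As a group the 10 genes were close to silent in both genotypes. Together they took 417 reads out of 148204908, and Tex19.1 alone accounted for 47.7% of these. Of 60 combinations of a gene and a library, 26 had no read, 10 of 30 in WT and 16 of 30 in MommeD43. Over all genes kept, WT replicates 1 to 3 had 18455, 17732 and 17301 genes with a read. MommeD43 replicates 1 to 3 had 16709, 19217 and 16674, the lowest counts being in the shallow replicates 1 and 3. The split of unread combinations between genotypes was not tested, as depth differed and combinations from 1 library are not independent. Tex19.1 was read in all 6 libraries, Hormad1 in none, and 4 genes (Tex101, Dazl, Asz1 and Hormad1) had fewer than 10 reads in all. In bulk tissue fewer cells of a type and less RNA per cell cannot be told apart, so these levels are those of the whole piece of tissue. No gene reached a mean of 1 RPKM, and the median of the 10 means was 0.0611 RPKM. Over all 21855 protein-coding genes the median was 0.893 RPKM, 49.1% reached 1 RPKM and 23.5% had no read.

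Ordered by mean RPKM over the 6 libraries, the levels were 0.822 for Tex19.1, 0.176 for Sycp3, 0.176 for Ddx4, 0.0968 for Slc25a31, 0.0625 for Stk31, 0.0598 for Mael, 0.0240 for Tex101, 0.01997 for Dazl, 0.00249 for Asz1 and 0 for Hormad1. The ranges of every pair of neighbours in this order overlapped, including Tex19.1, whose lowest library (0.350 RPKM) lay under the highest of Sycp3 (0.368 RPKM). Below Tex19.1 the order therefore separates no neighbours beyond their spread.

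**Figure D2:**
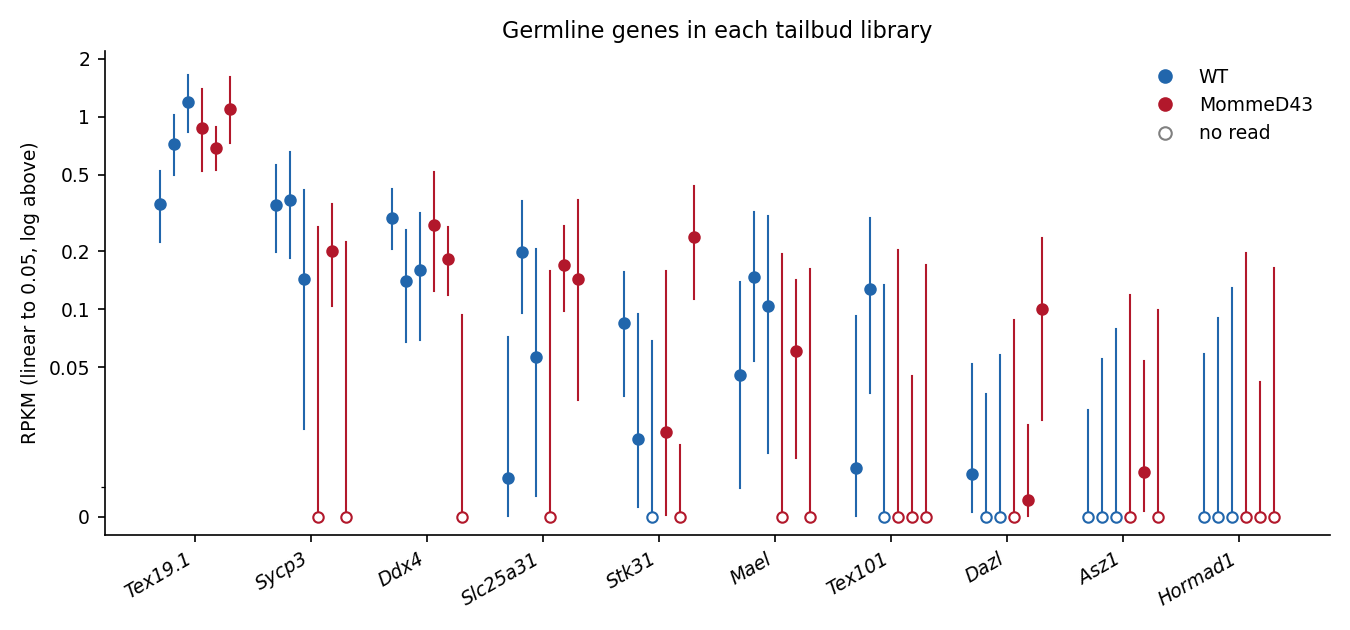
RPKM (y, linear up to 0.05 and log above) of each of the 10 germline genes (x, ordered by mean) in each WT (blue) and MommeD43 (red) library, replicates 1 to 3 from left to right within a colour, with exact 95% intervals of the reads as lines and open circles for no read. Tex19.1 stands highest in each library, the blue and red points overlap for every gene with reads, and Hormad1 has only open circles.

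Among the genes that protect the germ line from transposons, Tex19.1, which restrains retrotransposons in germ cells and is also expressed in pluripotent cells and placenta, was the best measured. It lies on chromosome 11 (121146143 to 121148319, plus strand). WT replicates 1 to 3 had 24, 32 and 37 reads, or 0.350, 0.724 and 1.19 RPKM, and MommeD43 replicates 1 to 3 had 18, 61 and 27 reads, or 0.877, 0.689 and 1.10 RPKM. The lowest and the highest library were both WT, so the groups overlapped. In WT the interval of replicate 1 (0.224 to 0.521 RPKM) and that of replicate 3 (0.837 to 1.64 RPKM) were apart. These libraries, the lowest and highest, thus differed by more than the counting error of independent reads. The WT mean was 0.754 ± 0.420 RPKM and the MommeD43 mean 0.889 ± 0.207 RPKM (SD over 3 libraries). On the log2 scale MommeD43 differed from WT by 0.38 ± 0.42 (SE, limma on all autosomal genes, Benjamini-Hochberg adjusted p = 0.999). Its sign rested on WT replicate 1, the male, since without that library it was -0.087. Its near copy Tex19.2 had 8 reads in all.

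Ddx4, the mouse vasa gene, encodes an RNA helicase of the piRNA pathway and lies on chromosome 13 (112598333 to 112652475, minus strand), behind the most CpG-rich of the promoters printed above. It had 33, 10 and 8 reads in WT (0.299, 0.140 and 0.160 RPKM) and 9, 26 and 0 reads in MommeD43 (0.273, 0.182 and 0 RPKM). In 5 libraries it was between 0.140 and 0.299 RPKM, and MommeD43 replicate 3 stood apart with none, where the interval reached up to 0.0935 RPKM. Its log2 fold change came to -0.85 ± 0.89 (SE, limma, adjusted p = 0.999), and it rested on that library, being 0.24 without it.

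Mael encodes Maelstrom, a piRNA pathway protein of the germ granule, and lies on chromosome 1 (166201201 to 166238747, minus strand). It had 3, 6 and 3 reads in WT (0.0473, 0.147 and 0.104 RPKM) and 0, 5 and 0 reads in MommeD43 (0, 0.0610 and 0 RPKM). Both unread libraries were the shallow ones, in which 3 reads would make 0.158 and 0.132 RPKM, above the WT mean of 0.0993 RPKM. A WT level would thus not have been reliably detectable there. Asz1, a scaffold protein of the same granules on chromosome 6 (18050964 to 18109061, minus strand), had 2 reads, both in MommeD43 replicate 2 (0.0149 RPKM), the deepest library.

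The 2 genes of the meiotic chromosome axis were Sycp3 and Hormad1. Sycp3, a core component of the synaptonemal complex, lies on chromosome 10 (88459569 to 88473236, plus strand). WT libraries had 16, 11 and 3 reads (0.346, 0.368 and 0.143 RPKM), and MommeD43 libraries had 0, 12 and 0 reads (0, 0.201 and 0 RPKM). It had the largest difference in RPKM of the 10 genes, -0.219 (MommeD43 minus WT; exact two-sided permutation p = 0.2, where 3 against 3 cannot go below 0.1). The groups overlapped, because MommeD43 replicate 2 was above WT replicate 3. In the 2 unread libraries 3 reads would make 0.217 and 0.181 RPKM, which is more than WT replicate 3 had but less than WT replicates 1 and 2 and the WT mean of 0.286 RPKM. In addition, 52.2% of the exon bases of Sycp3 are shared with Chpt1 on the opposite strand, a phospholipid synthesis gene whose own level was 1.64 ± 0.130 RPKM in WT libraries and 1.54 ± 0.160 RPKM in mutant libraries (SD over 3). The library kit keeps strand, but whether the counting used it is not given in the sources used here, so reads of Sycp3 may in part be reads of Chpt1. No other member shares exon bases with another gene.

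Hormad1, which marks unsynapsed chromosome axes in meiosis, lies on chromosome 3 (95559677 to 95587671, plus strand) and had no read in any library. Over all libraries pooled, 3 reads would make 0.0117 RPKM, which is the level these data allow. Its deposited values nevertheless ran from -4.40 in MommeD43 replicate 1 to -6.51 in MommeD43 replicate 2 (log2 RPKM), and gave a difference of 0.36 between groups that holds no reads at all. The same applies in part to Asz1 and Dazl, whose deposited differences of 0.75 and 0.85 (log2) come from 2 and 8 reads.

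**Figure D3:**
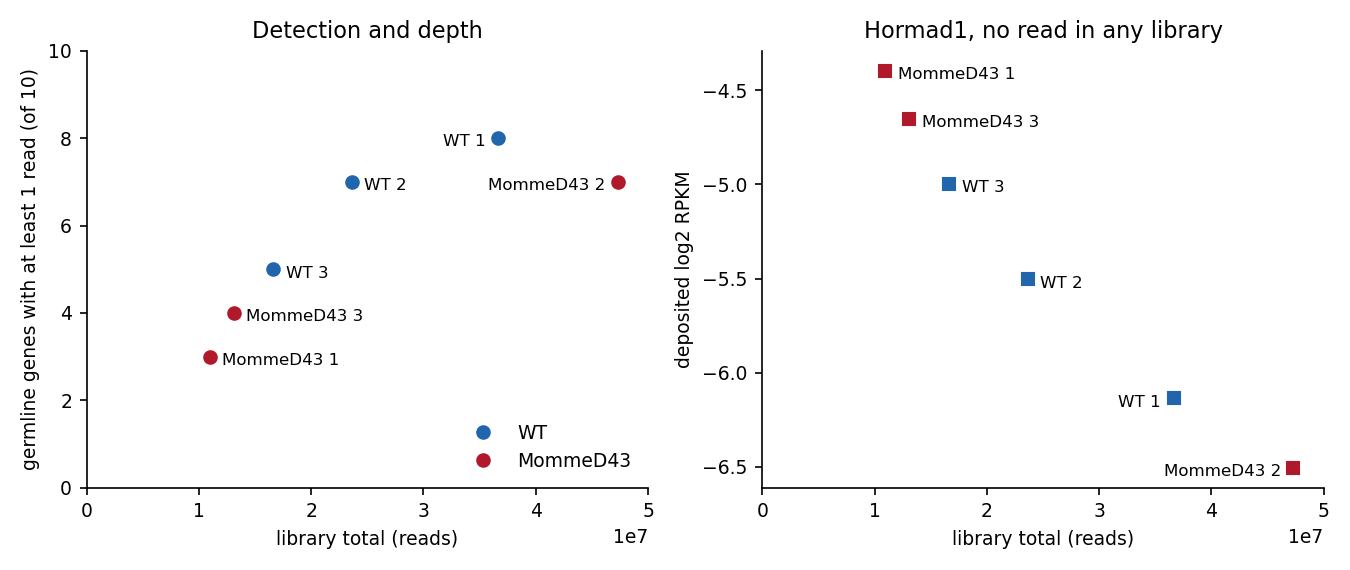
Left, number of the 10 germline genes with at least 1 read (y) against library total in reads (x), and right, deposited log2 RPKM of Hormad1 (y), which has no read, against the same totals, with WT in blue and MommeD43 in red. The libraries with fewest genes read, 3 and 4, are the shallowest. The mean levels of the 10 genes and these depths would give 6.37 and 6.68 genes with a read. WT replicates 1 to 3 had 8, 7 and 5 genes read against 7.91, 7.49 and 7.04 so expected, and MommeD43 replicate 2 had 7 against 8.10. These expected numbers take reads as independent. The value of the unread gene falls from -4.40 to -6.51 as depth rises.

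Dazl encodes an RNA-binding protein that controls translation in germ cells and lies on chromosome 17 (50279395 to 50293636, minus strand). It had 2, 0 and 0 reads in WT and 0, 1 and 5 reads in MommeD43, so that its highest library was MommeD43 replicate 3 (0.10001 RPKM) and the others were at or below 0.0143 RPKM. The difference in mean RPKM was 0.0304 (exact permutation p = 0.7), and without MommeD43 replicate 3 it was -0.00200.

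The remaining 3 genes have other roles in germ cells. Stk31, a Tudor domain protein with a kinase-like region, lies on chromosome 6 (49395604 to 49469501, plus strand). It had 10, 2 and 0 reads in WT (0.0844, 0.0262 and 0 RPKM) and 1, 0 and 10 reads in MommeD43 (0.0282, 0 and 0.236 RPKM). As for Dazl, the highest library was MommeD43 replicate 3. Within MommeD43 the interval of replicate 3 began at 0.113 RPKM and that of replicate 2, the deepest library, ended at 0.0241 RPKM. These 2 libraries thus differed by more than the counting error of independent reads.

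Slc25a31 encodes the ADP/ATP translocase of the male germ line and lies on chromosome 3 (40708855 to 40726096, plus strand). It had 1, 10 and 2 reads in WT (0.0128, 0.199 and 0.0565 RPKM) and 0, 17 and 4 reads in MommeD43 (0, 0.169 and 0.144 RPKM). Its somatic paralogues Slc25a4 and Slc25a5 were at 123 and 224 RPKM (mean of 6 libraries), and how reads that fit more than 1 of these genes were placed is not given in the sources used here, so its values are uncertain. Both male libraries were the lowest, at 1 and 0 reads. Tex101, a surface glycoprotein of germ cells and sperm on chromosome 7 (24668007 to 24676675, minus strand), had 1, 5 and 0 reads in WT and none in MommeD43. WT replicate 2, with 5 of its 6 reads, was also the library with most blood RNA (469 RPKM), and whether the 2 are related was not tested.

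In the test across genes, 2 of the 10 genes passed the filter on low values (at least 3 libraries at the level of 10 reads in a library of median size, and 15 reads in all), namely Tex19.1 and Ddx4. Neither was called by limma at an adjusted p under 0.05, where 0 of 13617 autosomal genes were called (0%). Without adjustment, neither had a p under 0.05, against 327 of 13617 genes (2.4%). With a filter of at least 10 reads over the 6 libraries, 6 genes could be tested. By voom on the recovered reads their log2 fold changes were -1.78 ± 0.90 for Sycp3, -1.22 ± 0.91 for Mael, -1.17 ± 1.51 for Stk31, -0.93 ± 0.85 for Ddx4, 0.44 ± 0.43 for Tex19.1 and 0.96 ± 1.07 for Slc25a31 (SE), and the adjusted p was 0.999 for each. Voom called 0% of the 16605 genes so tested. It counted none of the 6 at an unadjusted p under 0.05, against 3.4% of all, and limma on the deposited values counted 1, Sycp3 (unadjusted p = 0.0383, adjusted p = 0.999), against 2.9% of the same genes. That value sets the unread MommeD43 libraries at the level of 0.9 read. In Stk31 the sign differed between both methods, 0.03 ± 1.30 by limma on the deposited values.

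**Figure D4:**
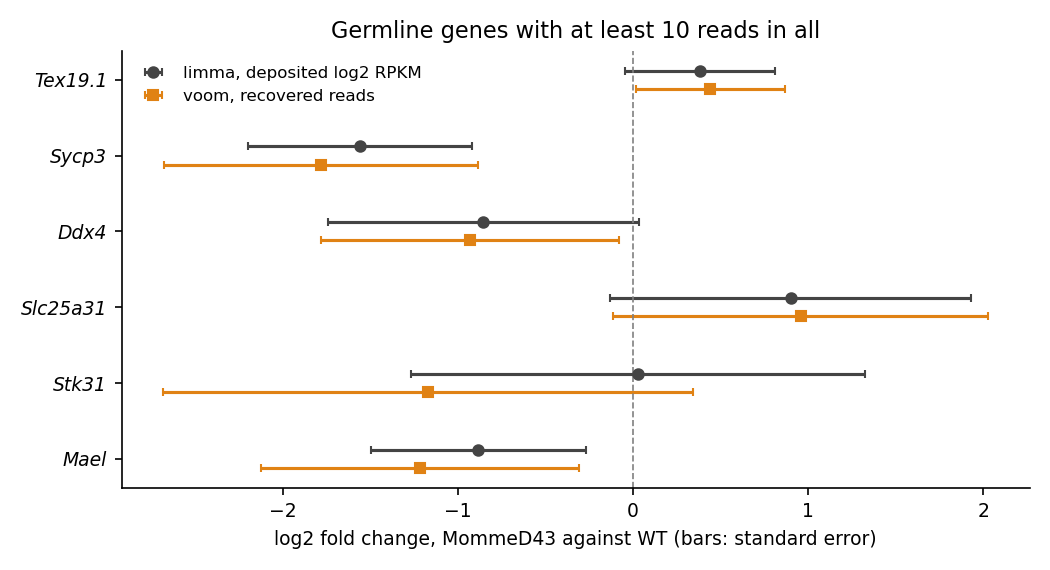
Log2 fold change of MommeD43 against WT (x) with its standard error (bars) for the 6 germline genes with at least 10 reads (y), from limma on the deposited log2 RPKM (grey circles) and from voom on recovered reads (orange squares). Sycp3 lies farthest from 0, at -1.56 and -1.78, and the 2 fits of Stk31 lie on either side of 0.

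Over all 10 genes, mean RPKM was higher in MommeD43 for 5, lower for 4 and 0 in both for Hormad1. None had groups that did not overlap. The share without overlap was 8.21% of the 3518 autosomal genes with 10 to 100 reads and 7.08% of the genes tested. At such shares, none among 10 genes does not set them apart. Genes at 0 in a library of both groups, such as Hormad1 and Asz1, had to overlap. The smallest exact permutation p was 0.2, for Sycp3 and Mael. Summed over the 10 genes, WT libraries had 1.17, 1.73 and 1.65 RPKM and MommeD43 libraries 1.18, 1.32 and 1.58 RPKM, or 1.52 ± 0.304 and 1.36 ± 0.204 (SD, n = 3 each). Without Tex19.1 the sums were 0.764 ± 0.277 RPKM in WT and 0.471 ± 0.167 RPKM in MommeD43. In both cases the groups overlapped, and the differences of -0.157 and -0.293 RPKM were described without a test, as the genes were chosen with results known. Without the 3 libraries of most blood RNA (WT replicates 2 and 3 and MommeD43 replicate 2), which left 1 WT library, the difference was 0.21 RPKM.

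Sex could be examined for the 2 genes that passed the filter, with 1 male in each genotype. The male difference thus has no replicate, and the spread in this fit came from the females alone. Its SE and p therefore assume that males vary like females. Both males also came from 1 mother and the females from different mothers, so sex and litter cannot be told apart here. In Tex19.1 the log2 difference between MommeD43 and WT was 1.33 in males and -0.09 in females, and these differed by 1.42 ± 0.62 (SE, limma interaction, adjusted p = 0.474). In Ddx4 they were -0.13 and -1.22, differing by 1.08 ± 1.63 (adjusted p = 0.828). Of 13617 genes, 37 passed this test at an adjusted p under 0.05 (0.272%), and neither gene was among them.

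All 8 primordial germ cell markers were read, 7 of them in all libraries, and Nanos3 was unread in WT replicate 3. Their summed level, most of it Pou5f1 and Ifitm3, which tailbud cells outside the germ line also express, was 36.2 to 59.9 RPKM in WT and 51.9 to 69.5 RPKM in MommeD43. Dppa3, a more specific marker, had 3.40, 4.32 and 3.24 RPKM in WT and 4.60, 5.88 and 6.60 RPKM in MommeD43 (log2 fold change 0.64 ± 0.16, limma unadjusted p = 0.00428, adjusted p = 0.999). Dnd1 had 1.472, 1.54 and 1.12 RPKM in WT and 1.78, 2.03 and 2.09 RPKM in MommeD43 (0.52 ± 0.17, adjusted p = 0.999). Ifitm3 had 25.9, 26.0 and 20.3 RPKM in WT and 29.7, 28.0 and 29.8 RPKM in MommeD43 (0.29 ± 0.10, adjusted p = 0.999). In these 3 of the 8 markers every MommeD43 library was above every WT library, where 7.08% of all genes tested had groups without overlap. limma tested 7 of the 8, all with a positive fold change, and called 0. At an unadjusted p under 0.05 it counted 4 of the 7, these 3 and Prdm14 (0.58 ± 0.25, unadjusted p = 0.0493), against 2.4% of all genes. Other marker lists also had 1 sign throughout. Of those tested, 0 of 7 yolk sac, 0 of 4 blood and 4 of 4 neural stem cell markers had a positive fold change. None of these had an unadjusted p under 0.05 by limma. In the tailbud list 4 of 8 were positive. MommeD43 replicate 3, the library with most Dppa3, had the most reads of Dazl and an equal highest count of Stk31, but none of Ddx4. The part of germ cells in these values was not tested. Of the testis and gonadal list, 7 of 8 markers were matched, and the 5 that are not also among the 10 genes (Prm1, Prm2, Tnp1, Acrv1 and Zp2) had no read in any library.

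Other genes with germ cell roles were likewise low. Of 63 listed (piRNA, meiotic, oocyte and testis genes), 17 had no read, 28 were read in all libraries, 4 reached a mean of 1 RPKM, and the median was 0.0488 RPKM. The limma test covered 21 of them and called 0, with none at an unadjusted p under 0.05. Their log2 fold changes had a median of 0.07 against 0.00 over all genes tested, 13 being positive and 8 negative. The highest was Syce2, a component of the central element of the synaptonemal complex, with 17.3 ± 1.30 RPKM in WT libraries and 16.2 ± 1.402 RPKM in mutant libraries (-0.10 ± 0.08, adjusted p = 0.999). It was followed by Ddx25, an RNA helicase of spermatids, at 2.19 and 2.33 RPKM (0.09 ± 0.12), and Tdrkh, a Tudor protein of the piRNA pathway, at 1.79 and 1.41 RPKM (-0.34 ± 0.25). Groups did not overlap in 2 of the 21, Ddx25 higher and Tdrd5, a Tudor protein of germ granules, lower in MommeD43 (0.801 and 0.681 RPKM), against 7.08% of all genes tested.

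Genes of the silencing machinery were read at a high level. Of 30 listed, 27 reached a mean of 1 RPKM and the median was 19.6 RPKM. The list also holds Tet1, Tet2 and Tet3, which act in the removal of DNA methylation. They are included in all counts given for the list, each with a negative fold change (-0.20, -0.10 and -0.07). Uhrf1, which guides maintenance methylation, was highest, with means of 123 ± 8.96 RPKM (WT) and 122 ± 8.58 RPKM (MommeD43) (-0.02 ± 0.07, adjusted p = 0.999). Cdca7, which activates the remodeller HELLS, was at 112 and 113 RPKM, and Tfdp1, the dimer partner of E2F proteins, at 58.0 and 59.0 RPKM. Among the enzymes, Dnmt1 was at 55.5 and 54.1 RPKM, Dnmt3b at 32.7 and 33.4 RPKM and Dnmt3a at 10.1 and 9.53 RPKM. Of the proteins that recognise the motifs in capitals, E2f6 was at 16.7 and 16.8 RPKM, Mga at 12.1 and 11.1 RPKM and Max at 20.9 and 21.3 RPKM. limma tested 27 of these genes and called 0, with none at an unadjusted p under 0.05, 9 positive and 18 negative fold changes, and a median of -0.02. Zbtb24 was higher and Ring1 lower in MommeD43 without overlap of the groups (3.14 and 3.42 RPKM, and 4.59 and 4.17 RPKM), 2 of 27 genes against 7.08% of all genes tested. The methyltransferases, the motif-binding proteins, Tdrd5, Zbtb24 and Ring1 lie outside the rule for naming genes and were chosen after their values were seen.

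**Figure D5:**
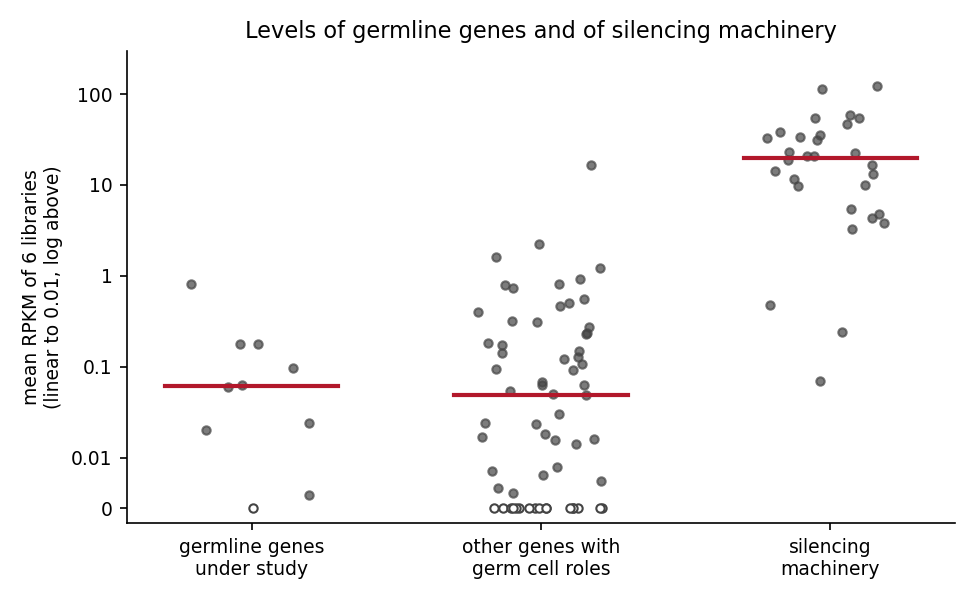
Mean RPKM over 6 libraries (y, linear up to 0.01 and log above) of each gene, as points spread sideways, in the 10 germline genes, 63 other genes with germ cell roles and 30 genes of the silencing machinery, with medians as red lines and open circles for genes with no read. The medians are 0.0611, 0.0488 and 19.6 RPKM, and Tex19.1 is the highest of the 10.

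The genes whose log2 RPKM followed Tex19.1 most closely over the 6 libraries were Cpm, a membrane carboxypeptidase (Pearson r = 0.992), Tspan8, a tetraspanin (0.990), and Rchy1, a ubiquitin ligase (0.982). This is a description over 6 points that share library depth and tissue makeup, and 109 of the genes tested had an r of at least 0.9 with it.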

How the data were processed

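PolyA RNA of 6 tailbud samples, 3 WT and 3 MommeD43, was sequenced with a stranded kit. According to the submitters' processing notes, reads were trimmed with Trim Galore 0.4.4 and mapped with HISAT2 2.0.5 to GRCm38.p6, and the authors quantified genes with SeqMonk. The deposited table holds log2 RPKM as the authors made it, log2 of reads scaled to exon length and library size, and the authors' mean columns were not used. Of 35591 rows, 35555 matched GENCODE M21 by identifier, which gave exon lengths. Genes without a read sat at 0.9 read, which gave library totals of 10957916 to 47298348 reads. Of 105982 values above that level, 99.0% were whole reads within 0.02. For a repeated identifier only the row of highest mean log2 RPKM was kept, which left 35506 genes, of which 14631 had no read.

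Groups, replicate numbers and sexes came from the labels. The 13617 autosomal genes with at least 3 libraries at the CPM of 10 reads in a median library and at least 15 reads in all entered a two-sided test on the deposited log2 RPKM with the mean-variance trend of limma 3.58.1 in R 4.3.3, with Benjamini-Hochberg adjustment over all of them. The code was tested on simulated data. RPKM of single genes was compared by exact two-sided permutation. Other steps ran in Python 3.11.15 with scipy 1.17.1 and pandas 2.3.3 on numpy 2.4.6, and plots were drawn with matplotlib 3.10.9. Promoter windows are RefSeq's on GRCm38.p6. The genes, lists, naming rule and alternatives were chosen with earlier results of these data known. Named were the 10 genes, Smchd1, the 3 genes most correlated with the highest of the 10, and from each other list the genes at an unadjusted p under 0.05 and the 3 of highest mean RPKM.

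Alternatives were other filters (at least 10 reads, or 1), median-ratio scaling, log2(RPKM + 0.1) and log2(RPKM + 1), voom on recovered reads, sex as a covariate, the replicate number as a block, females alone, each library left out, and for the sum, unread genes at the deposited value and leaving out the highest gene. Added after seeing the data were voom with at least 10 reads, the sum without the 3 libraries of most blood RNA, and other scales for the effect of sex.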

Additional observations from a re-analysis of the deposited data

How the results depend on the processing

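In 16 alternatives 0 of the germline genes tested were called at an adjusted p under 0.05, with 0 to 1 at an unadjusted p under 0.05, but most of these tested only Tex19.1 and Ddx4. The filter of at least 10 reads, with limma or voom, tested 6 of the 10, that of 1 read tested 9, and Hormad1 was tested in none. Likewise 0 were called of the 21 to 46 other germ cell genes and the 27 to 29 genes of the silencing machinery that were tested. Over all autosomal genes, limma called 0, and 10 in females alone (2 against 2), with 187 to 1188 genes at an unadjusted p under 0.05 over the alternatives. The cause of the 10 calls was not tested, and neither Tex19.1 (adjusted p = 0.945) nor Ddx4 (adjusted p = 0.698) was among them. The log2 fold change of Tex19.1, 0.38, became -0.090 in females alone and -0.087 without WT replicate 1, which is the WT male, and ran from -0.087 to 0.80 when each library was left out. That of Ddx4, -0.85, became 0.24 without MommeD43 replicate 3, in which it had no read, and ran from -1.55 to 0.24. Their adjusted p was at least 0.945 and 0.698 in every alternative. The difference of the summed RPKM, -0.157, ran from -0.331 to -0.0504 over the libraries left out, and became 0.21 without the 3 libraries of most blood RNA, an alternative chosen after seeing the data, and the cause was not tested. Deviations of samples with the same replicate number correlated at -0.03, 0.17 and -0.17, and those with different numbers at -0.19 to 0.18. Deviations from a mean of 3 libraries constrain each other, so these values cannot show whether the numbers pair the samples. The paper describes the embryos as somite-matched pairs. With the replicate block 0 genes were called, Tex19.1 was at 0.38 ± 0.34 and Ddx4 at -0.85 ± 0.71. Depth limits the other 8 genes: in the shallowest library 3 reads made between 0.0717 RPKM (Dazl) and 0.217 RPKM (Sycp3). Over 8 alternatives the RPKM difference stayed negative in Sycp3 (-0.290 to -0.155), Mael (-0.105 to -0.0554) and Tex101 (-0.0721 to -0.00824). It changed sign in Stk31 (-0.0227 to 0.105), Slc25a31 (-0.0236 to 0.0695) and Dazl (-0.00200 to 0.0528). The sign also changed in Ddx4 (-0.109 to 0.0277) and Tex19.1 (-0.0669 to 0.353). Asz1 ran from 0 to 0.00747, and Hormad1 stayed at 0.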
